A study of Homo sapiens with 4 samples.

Results

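Shared ChIRP-seq peaks at noncoding transcript promoters were the peaks of the third MIR205HG pull-down that overlapped a peak of the second pull-down by at least 1 bp and had their summit at the promoter of a noncoding transcript but of no protein_coding transcript. The promoter window was the stretch around a transcription start site (TSS) that begins 1500 bp before it and ends 500 bp past it, in GENCODE release 44 lifted to GRCh37. Of the 17054 peaks of replicate 3 on chromosomes 1 to 22 and X, 8133 (47.7%) overlapped a replicate 2 peak, and 487 of these 8133 (5.99%, exact 95% interval 5.48 to 6.53) met the promoter rule. The members were thus selected on the peak calls and summits of replicates 2 and 3, so those values describe them and support nothing further. Another 292 shared peaks had their summit at a protein_coding promoter, and 7354 had it in neither window.

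Chromatin isolation by RNA purification (ChIRP) pulls an RNA out of crosslinked chromatin with biotinylated antisense oligonucleotides, and the DNA that comes with it is sequenced. The study used RWPE-1, an immortalized human prostate epithelial line with a basal phenotype, grown under 1 condition, with 3 independent ChIRP replicates against MIR205HG and 1 mock library pulled down with lacZ probes. Every peak list was called against that same lacZ library, so the 3 lists share their control, and the spread of the mock pull-down is not known. No second condition has a peak list here, and the comparisons below are between kinds of region within the same libraries.

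MIR205HG is the host gene of miR-205 and also gives rise to a nuclear long noncoding RNA, LEADR, whose sequence holds part of an Alu element. Alu elements are short, primate-specific repeats derived from 7SL RNA, the RNA of the signal recognition particle. Noncoding transcripts are a mixed group. Long noncoding RNAs (lncRNAs) are transcribed from intergenic, antisense or divergent start sites, processed pseudogenes are reverse-transcribed copies of mRNAs, small RNA genes encode spliceosomal, nucleolar, Y, 7SL and micro RNAs, and retained-intron models are partial transcripts of mostly protein-coding genes that often begin inside the gene body.

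The query aligned to every peak for the Alu measurement was the Alu-derived stretch of MIR205HG, which spans positions 178 to 400 of ENST00000429156, a transcript of 1007 bases. The sequences at the leading peaks without such an alignment are given here, as 121 bases centred on the replicate 3 summit. They are those of the 3 leading members with no Alu alignment of at least 100 bp in the peak and of the peak at MEG3, and hold no capitals because no base was aligned to the query.
LINC02593, chr1:855876-855996, GRCh37, plus strand: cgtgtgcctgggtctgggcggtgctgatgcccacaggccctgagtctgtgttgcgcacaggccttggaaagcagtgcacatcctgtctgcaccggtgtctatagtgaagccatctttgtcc
ENSG00000236295, chr2:217738713-217738833, GRCh37, plus strand: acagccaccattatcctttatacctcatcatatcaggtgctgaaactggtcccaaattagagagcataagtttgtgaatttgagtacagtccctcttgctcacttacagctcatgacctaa
DNHD1, chr11:6549676-6549796, GRCh37, plus strand: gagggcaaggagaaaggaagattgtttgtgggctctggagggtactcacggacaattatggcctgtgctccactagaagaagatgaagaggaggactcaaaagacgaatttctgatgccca
MEG3, chr14:101296661-101296781, GRCh37, plus strand: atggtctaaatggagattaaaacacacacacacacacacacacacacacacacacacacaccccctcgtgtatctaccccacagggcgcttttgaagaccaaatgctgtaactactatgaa
The summit of the MEG3 peak lay beside a run of alternating a and c.

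Fold enrichment is the pileup of reads at the summit over the local lacZ level, as deposited, with 1 pseudocount read in each. Over the 487 members its median was 7.97 in replicate 3 (quartiles 5.98 to 11.3) and 6.31 in replicate 2 (quartiles 5.15 to 7.94). All 8133 shared peaks had medians of 7.97 and 6.47, so the peaks at noncoding promoters sat at the middle of the shared peaks in both lists. Replicate 3 was above replicate 2 in 368 members (75.6%), against 6100 of all 8133 shared peaks. The peaks rested on few reads: the number of reads at the summit, solved from the deposited fold enrichment and p-value, had a median of 21 in replicate 3 (range 9 to 158) and of 22 in replicate 2 (range 10 to 170). Summits of the 2 replicates lay 47 bp apart at the median, and 366 of 487 pairs (75.2%) lay within 100 bp. The median peak width was 445 bp in replicate 3 and 333 bp in replicate 2, and 80 members (16.4%) were at least 1 kb wide in replicate 3, against 972 of all 8133 shared peaks.

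**Figure D1:**
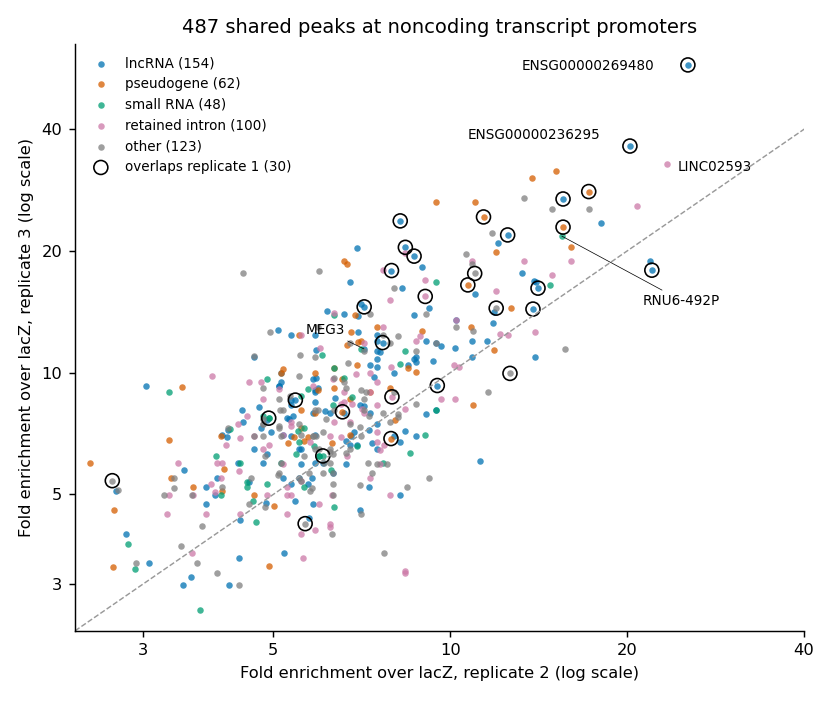
Fold enrichment over lacZ of the 487 members in replicate 2 (x axis) and replicate 3 (y axis), both on log scales, coloured by class, with rings around the 30 members that overlap a replicate 1 peak and a dashed line where both replicates are equal. Most points lie above the line (368 of 487), and the rings gather towards the upper right.

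By the type of the nearest noncoding TSS, lncRNAs held 154 members (31.6%, exact 95% interval 27.5 to 35.96), retained introns 100 (20.5%, 17.0 to 24.4), pseudogenes 62 (12.7%, 9.90 to 16.0) and small RNAs 48 (9.86%, 7.36 to 12.9). The remaining 123 (25.3%, 21.5 to 29.4) were mostly other noncoding models of protein-coding genes: 94 were transcripts without a defined coding sequence, 18 were targets of nonsense-mediated decay and 9 were of the type TEC, to be experimentally checked. These intervals cover counting error only. In all, 210 members had a transcript of a protein-coding gene as their nearest noncoding transcript, including 97 of the 100 at retained introns. Within this annotation 382 members (78.4%) lay in the window of 1 noncoding transcript only and 40 in windows of more than 1 class. The class shares depend on the transcripts admitted: with only transcripts of genes that are not protein coding, lncRNAs held 55.5% of 281 members and retained introns 1.07%. With replicate 1 as the partner list, lncRNAs held 50% to 54.8% of 30 or 31 members.

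The 487 peaks fell at 412 genes, 67 of which held more than 1. Joining peaks within 5 kb left 404 separate stretches, so neighbouring members are not independent regions. The same counts were not made for all shared peaks, so they do not show whether members lie closer together than other peaks. SPIRE1, which encodes an actin nucleation factor and was singled out after its values were seen, held the most, with 4 members at its retained-intron transcripts. Their fold enrichments in replicate 3 ran from 4.16 to 15.4, and in replicate 2 from 6.25 to 9.07. The pair with the lowest values in replicate 3, at 4.16 and 4.23, overlapped the same replicate 2 peak.

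The windows themselves take up different shares of the genome, and the summit counts were set beside that. Noncoding windows outside every protein_coding window covered 5.02% of the sequenced bases and held 5.99% of the shared summits, a ratio of 1.19. Protein_coding windows covered 2.55% and held 3.59%, a ratio of 1.41. Per megabase of window the members came to 3.42 summits (exact Poisson 95% interval 3.12 to 3.74), protein_coding promoters to 4.04 (3.59 to 4.53) and the rest of the genome to 2.81 (2.74 to 2.87). Among the classes, pseudogene windows had 2.27 summits per megabase (1.74 to 2.91), and lncRNA (3.58), retained intron (3.68) and other windows (4.07) had more, with small RNA windows between them at 3.24. Only these windows' size was taken into account, and base composition also differed: the noncoding windows had 44.4% G and C, the protein_coding windows 50.6% and the rest 40.5%. Its part in these densities was not tested, and summit position is what the rule used, so no test was made.

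**Figure D2:**
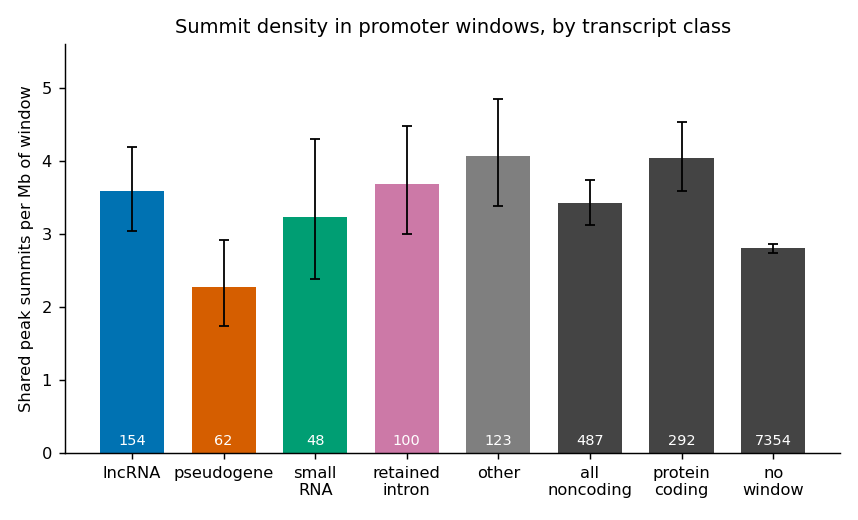
Summits of shared peaks per megabase of promoter window (y axis) by class of the nearest noncoding transcript, beside all noncoding windows, protein_coding windows and the bases in no window. Error bars are exact Poisson 95% intervals for counting error and white numbers are the summits counted; pseudogene windows have the lowest density of the promoter classes at 2.27.

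Within the window, the summit lay at a median of 459 bp upstream of the TSS, and 364 members (74.7%) had it upstream, where most of the window lies. The farthest stretch, more than 1000 bp upstream, held 96 members (19.7%), and the next 3 stretches of about equal length held 136 (27.9%), 132 (27.1%) and 123 (25.3%). Shared peaks at protein_coding promoters had 96 of 292 (32.9%) in the farthest stretch and 66, 62 and 68 in the others. Pseudogene and lncRNA members had 14.5% and 15.6% in the farthest stretch, with intervals that include the 19.7% of all members. The summit lay within 100 bp of the TSS in 52 members (10.7%), against 27 of 292 (9.25%) at protein_coding promoters. The TSS itself lay inside 135 of the member peaks (27.7%). Because a summit near a protein_coding TSS removes a peak from the members, the shape of this distribution is partly set by the rule.

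**Figure D3:**
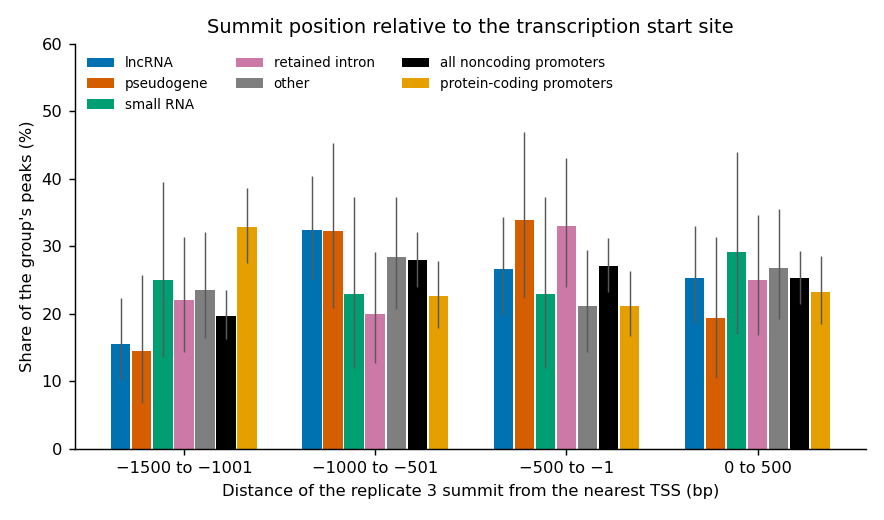
Share of each group's peaks (y axis, percent, with exact 95% binomial intervals) by the distance of the replicate 3 summit from the nearest TSS in base pairs (x axis), for the 5 noncoding classes, all 487 members and the 292 shared peaks at protein_coding promoters. The last group is highest more than 1000 bp upstream, at 32.9%, where all members are at 19.7%.

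At the edges of the rule, the member farthest upstream was at the lncRNA ENSG00000233981, 1498 bp before the TSS, at 11.95-fold in replicate 3 and 11.6-fold in replicate 2. The nearest shared peak outside that edge, 1506 bp upstream of the ribosomal protein pseudogene RPS18P13, had 4.98 and 5.81. On the downstream side the last member lay 499 bp past the TSS of the snoRNA SNORA38B (7.25 and 4.22), and the first peak outside lay 504 bp past that of LINC01737 (5.64 and 5.58). The smallest overlap between replicates was 44 bp, at a retained intron of ZNF384, a zinc finger gene (8.63 and 4.80). A replicate 3 peak at ENSG00000286215 with a fold enrichment of 3.98 missed the nearest replicate 2 peak by 12 bp.

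The lncRNA members included the strongest of all shared peaks in replicate 3. It covered 5186 bp at chr19:17317471-17322656 (GRCh37), with its summit 979 bp upstream of ENSG00000269480, a lncRNA that runs antisense within MYO9B, the gene of an unconventional myosin. Its fold enrichment was 57.7 in replicate 3, 25.4 in replicate 2 and 7.78 in replicate 1, from 127, 77 and 21 reads at the summit. The widths also differed, since the replicate 2 peak covered 4592 bp and the replicate 1 peak lay inside both. The replicate 3 peak also spanned the protein_coding TSS nearest its summit, that of MYO9B at 1776 bp, so it counts as noncoding by summit position only.

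ENSG00000236295, at chr2:217738333-217738952, followed with 36.4, 20.2 and 14.4 in replicates 3, 2 and 1, and its peak was only 620 bp wide. Next in rank by the geometric mean of replicates 2 and 3 were LINC02533 (23.4 and 18.1 in replicates 3 and 2), ENSG00000290111 (26.9 and 15.6) and DTX2P1-UPK3BP1-PMS2P11 (18.9 and 21.9). ENSG00000289072 (17.9 and 22.03), ENSG00000255041 (21.9 and 12.5) and ENSG00000232358 (20.9 and 12.1) completed the first 8. Replicate 3 was the higher one in 6 of these 8 and replicate 2 in the other 2, DTX2P1-UPK3BP1-PMS2P11 and ENSG00000289072. Of the 154 lncRNA members, 91 lay at genes with no name beyond an Ensembl identifier. The share of such genes among all annotated lncRNA genes was not counted, so this is not a trait of the members.

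Of 18776 annotated genes with a lncRNA transcript, 135 (0.719%) held a member, and the named families are given beside that share. Genes with a LINC symbol, the long intergenic transcripts, held 31 members at 25 of 2273 annotated genes (1.10%), with median fold enrichments of 10.96 in replicate 3 and 7.03 in replicate 2. Antisense transcripts with an AS symbol held 17 members at 13 of 1847 genes (0.704%), with medians of 9.96 and 6.98. Divergent transcripts, which share a promoter with a protein-coding gene, held 1 member at 1 of 590 genes (0.169%), 292 bp past the TSS of ZNF496-DT (5.98 and 4.80). A promoter inside a protein_coding window lies outside the members by the rule. No microRNA host gene of 73, no snoRNA host gene of 28 and none of 14 lncRNAs studied in prostate had a member, but at the share over all lncRNA genes lists this short would hold about 1 or none.

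Of 29 well-studied lncRNAs, MEG3 alone had one. MEG3 is a maternally expressed, imprinted lncRNA, and the peak at chr14:101296559-101296850 had its summit 221 bp upstream of the TSS of a MEG3 transcript. Its fold enrichment was 11.5 in replicate 3 and 7.13 in replicate 2, from 22 and 17 reads, and replicate 1 had no peak there.

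Among the antisense transcripts, TMEM72-AS1 held a pair of members. The stronger one, 916 bp upstream of the TSS, had 18.2 and 8.94 in replicates 3 and 2, and the weaker one, 12 bp upstream, had 6.31 and 4.87. The pair at ZNF232-AS1 had 16.2 and 14.1 at 1090 bp upstream and 5.64 and 6.31 at 321 bp downstream, and the upstream peak of this pair also overlapped replicate 1, at 7.20. GAS6-AS1, opposite the gene of the receptor ligand GAS6, had 11.97 and 7.52, with its summit 36 bp upstream.

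The summits of 45 of 154 lay in a protein_coding transcript, 38 of them on the opposite strand to the lncRNA and 7 on the same strand. The annotation itself has this tilt: of 8402 lncRNA start sites that lie in a protein_coding transcript and outside protein_coding windows, 6635 (79.0%) are on the opposite strand, against 84.4% of the 45. Over all 487 members 297 summits (61.0%) lay in a protein_coding transcript, 236 on its strand and 61 against it. Of these 297, 207 had a transcript of a protein-coding gene as their nearest noncoding transcript, and 205 of those were on the same strand. The share of summits in protein_coding transcripts was not counted for all shared peaks or for the bases of the windows. The median distance to the nearest protein_coding TSS was 17829 bp, from 8710 bp for retained introns to 46013 bp for pseudogenes.

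Pseudogene members had the highest median fold enrichment of the 5 classes in replicate 3, at 9.41, but not in replicate 2, at 6.63 against 6.70 for lncRNAs. Replicate 3 was above replicate 2 in 56 of 62 (90.3%). Processed pseudogenes made up 37 of the 62. The first by rank, ENSG00000259769 at chr15:20253249-20255840, had 28.1, 17.2 and 7.20 in replicates 3, 2 and 1. DTX2P1, an unprocessed copy of the ubiquitin ligase gene DTX2, had 31.6 and 15.2 in replicates 3 and 2, and the olfactory receptor pseudogene OR7M1P had 30.4 and 13.8. ENSG00000259025 at chr15:21260000-21262004 came next with 22.9, 15.6 and 5.13.

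ENSG00000259769 and ENSG00000259025 are copies of each other. Their peaks aligned over 1973 bp at 99.6% identity, and both also aligned at 95.2% over 645 bp to the member at ADAM6 on chromosome 14 (11.9 and 9.45). In all, 12 members formed 9 pairs that aligned over at least 200 bp at 95% identity or more. Members were aligned only to one another, so copies of a member elsewhere in the genome were not sought, and more members may have them. How reads with several placements were handled is not given in the sources used here, so the values of such copies may depend on one another, and this was not tested. The pairs include the members with the most reads in both replicates, at the chromosome 17 pseudogenes RP11-1109M24.9 and RP11-1109M24.11, whose peaks aligned over 987 bp at 96.6% and whose fold enrichments were low, at 3.30 and 5.79 in replicate 3 and 2.67 and 4.12 in replicate 2.

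Families among the pseudogenes are given as counts only, because the annotated loci of each family were not counted. Over all 58374 genes with a noncoding transcript, 412 (0.706%) held a member. Ribosomal protein pseudogenes held 7 members, with fold enrichments from 5.09 to 24.3 in replicate 3, the highest at RPS4XP14. Olfactory receptor pseudogenes held 4, from 9.17 to 30.4, and 5S ribosomal RNA pseudogenes held 2, at 10.1 and 18.6.

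Small RNA members had the lowest medians of the 5 classes in both replicates, 6.88 in replicate 3 and 5.68 in replicate 2. Their reads at the summit had medians of 22 in replicate 3 and 25.5 in replicate 2, against 21 and 22 over all members. The lacZ level beneath the peaks was not compared between classes. The class held 17 misc_RNA, 13 miRNA, 10 snRNA and 8 snoRNA members. The highest was 327 bp past the TSS of RNU6-492P, a copy of the spliceosomal U6 RNA, at chr9:110236276-110238282, with 21.8 in replicate 3 and 15.5 in replicate 2. A second member at the same gene, 1264 bp upstream, had 5.38 and 4.50. U6 copies held 8 members in all, with a median of 6.23 in replicate 3. The 9 members at 7SL copies had a median of 5.23 and a highest value of 8.72. How many copies of U6 and 7SL are annotated was not counted, so these are not shares.

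The 13 miRNA members fell at 11 genes, and RefSeq gave mature sequences for 1 of them, MIR3925. Its 2 members lay 315 bp past the TSS (16.5 and 14.8 in replicates 3 and 2) and 1490 bp upstream of it (8.30 and 6.31). The mature sequences are shown to identify the gene, with the seed (bases 2 to 8) in capitals. The peaks say nothing about their level.
hsa-miR-3925-5p: aAGAGAACugaaaguggagccu
hsa-miR-3925-3p: aCUCCAGUuuuaguucucuug
The other miRNA genes carry clone-based names in the annotation. AC092122.2 had 16.7 and 9.45, and AC007339.1 had 11.3 and 8.39.

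Retained-intron members had medians of 7.56 in replicate 3 and 6.44 in replicate 2. The first was at LINC02593, one of the 3 at lncRNA genes, at chr1:853192-857442, with 32.9 in replicate 3 and 23.4 in replicate 2. Its peak was 4251 bp wide and 62.6% G and C, the summits of both replicates were 1 bp apart, and replicate 1 had no peak there although 60 and 59 reads lay at the summits.

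Others that followed were at protein-coding genes. DNHD1, a dynein heavy chain domain gene, had 25.9 and 20.8. SETD3, an actin histidine methyltransferase, had 17.4 and 14.9 in a peak of only 323 bp. In both, replicate 3 was the higher, and neither overlapped replicate 1.

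The remaining class was led by NTN4, a secreted netrin, with 25.4 in replicate 3 and 17.2 in replicate 2 at a transcript without a defined coding sequence. ELAVL4, a neuronal RNA-binding protein, followed with 25.4 and 14.9, then CAPN13, a calpain, with 27.0 and 13.3 and ALK, a receptor tyrosine kinase, with 22.1 and 11.8. The CAPN13 and ALK transcripts are nonsense-mediated decay models. All 4 summits lay within the body of the gene and at least 4030 bp from any protein_coding TSS, and none of the 4 peaks overlapped replicate 1.

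**Figure D4:**
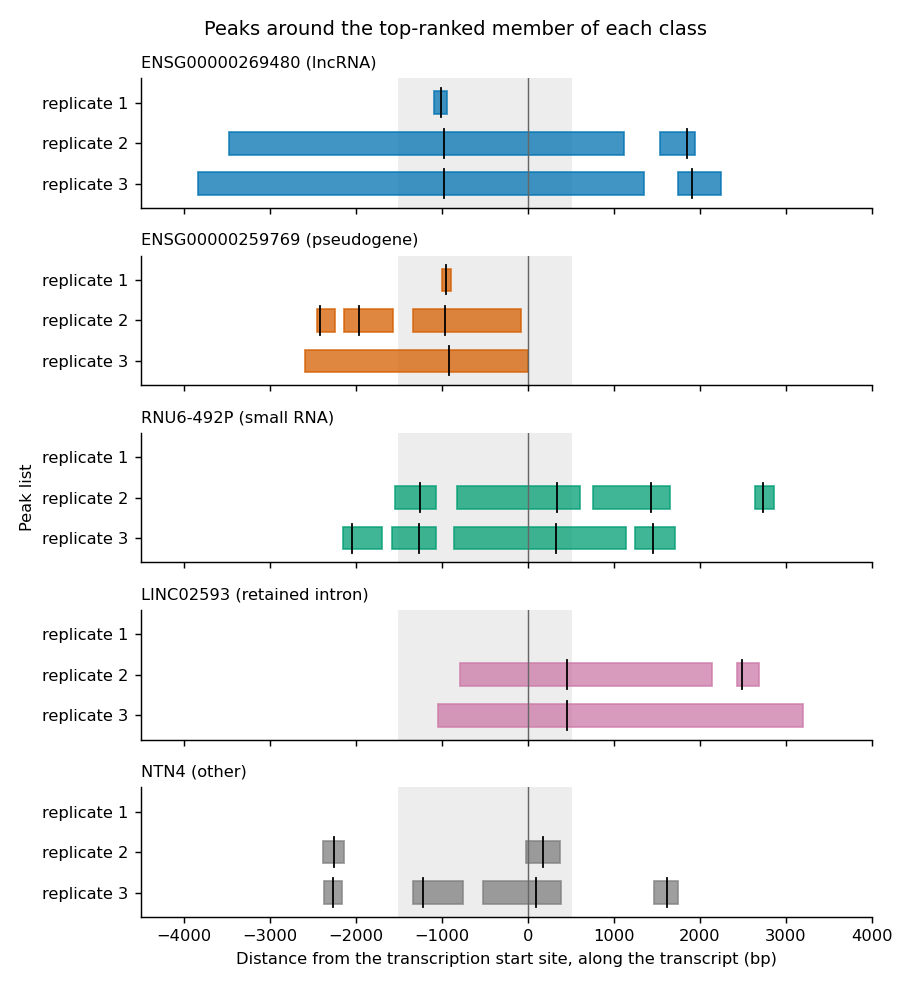
Extent of every peak within about 6 kb of the TSS of the top-ranked member of each class, in base pairs from the TSS along the transcript (x axis), with 1 row per replicate, a black line at each summit and grey for the promoter window. The peaks of replicates 2 and 3 overlap at the member in all 5 panels, and replicate 1 has a peak at ENSG00000269480 and ENSG00000259769 only.

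Replicate 1 was not used to choose the members, although its peaks were called against the same lacZ library. Its list is short, with 723 peaks on the same chromosomes against 10765 and 17054, although its solved depth was the highest, at 1.83 times the lacZ library against 1.39 and 1.00. Of the 487 members 30 (6.16%, exact 95% interval 4.19 to 8.68) overlapped a replicate 1 peak. Over all shared peaks the share was 7.99%, and at protein_coding promoters it was 16 of 292 (5.48%). The odds of overlap did not differ detectably between noncoding and protein_coding promoters (odds ratio 1.13, 95% interval 0.585 to 2.27, two-sided Fisher's exact test p = 0.755, Benjamini-Hochberg p = 0.755 over 2 tests). The test counts regions of the same libraries and its p covers counting error only. The interval allows clearly lower as well as higher odds at noncoding promoters.

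By class, 15 lncRNA members (9.74%), 6 at pseudogenes (9.68%), 2 at small RNAs (4.17%), 2 of 100 at retained introns and 5 of the other class (4.07%) overlapped replicate 1. The intervals of these shares overlap one another, and the classes were not tested against each other. The lncRNA members were ENSG00000269480, ENSG00000236295, ENSG00000290111, ENSG00000254619, ENSG00000255041, LINC02609 and ENSG00000231740 among the 10 with the highest replicate 3 fold enrichment, and the other 3 of these 10 were the pseudogenes ENSG00000259769, RPS4XP14 and ENSG00000259025. Fold enrichment in replicate 1 ran from 3.18 to 14.4 over the 30, with a median of 8.08, and was below that in replicate 3 in 28 of them and below that in replicate 2 in 22. The 30 had a median of 15.8 in replicate 3 against 7.66 for the 457 others. Members were also ranked by replicate 3 and divided into 4 groups of about equal size. The highest group held 20 of the 30 (16.4% of its 122) and the lowest 2 of 121 (1.65%). Peak width in replicate 3 differed as well. Its median was 781.5 bp in the 30 against 434 bp in the others, and 826 bp in the highest group against 396 bp in the lowest. A wide peak meets the 1 bp overlap more easily, and the part of width was not tested.

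**Figure D5:**
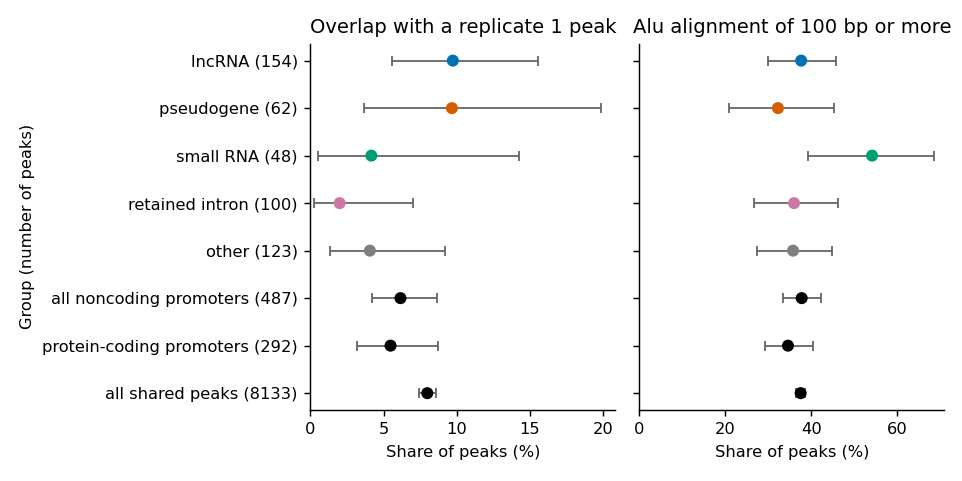
Share of peaks that overlap a replicate 1 peak (left, percent) and that hold an alignment of at least 100 bp to the MIR205HG Alu part (right, percent), by noncoding class, for all 487 members, for the 292 shared peaks at protein_coding promoters and for all 8133 shared peaks. Bars are exact 95% binomial intervals; small RNA members have the highest Alu share at 54.2%, and the interval of every class overlaps that of all members in both panels.

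An Alu alignment of at least 100 bp lay within 184 members (37.8%, exact 95% interval 33.5 to 42.3). The share depends on the length asked for, and was 57.7% (281 members) at 50 bp or more and 0 at 150 bp or more. Of the alignments in all shared peaks and their flanks, 30.9% ended before base 94 of the query. Those span fewer than 100 query bases, so the 100-bp limit mainly counts alignments that reach past that base. At 100 bp, all shared peaks had 37.5%, and those at protein_coding promoters had 101 of 292 (34.6%). The odds did not differ detectably between noncoding and protein_coding promoters (odds ratio 1.15, 95% interval 0.839 to 1.57, two-sided Fisher's exact test p = 0.398, Benjamini-Hochberg p = 0.755 over 2 tests). The summit itself lay in such an alignment in 86 members (17.7%), against 18.0% of all shared peaks. Identity to the MIR205HG Alu part ran from 71.8% to 88.9% with a median of 81.2%, and the alignment lay on the strand of the noncoding transcript in 95 of 184 members (51.6%). The longest stretch identical to any part of the MIR205HG transcript was 36 bp, at MED15, and 29 members held one of 20 bp or more. Shared peaks at protein_coding promoters were much alike. Their longest stretch was 34 bp, and the median per peak was 13 bp there and 14 bp in the members. How many of them reached 20 bp was not counted.

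Small RNA members had the highest Alu share, 26 of 48 (54.2%, 39.2 to 68.6), and pseudogenes the lowest, 20 of 62 (32.3%, 20.9 to 45.3). Among the small RNAs the alignment was present at 7 of 9 members at 7SL copies, the family from which Alu elements derive, at 5 of 8 at U6 copies, at 3 of 4 at Y RNA copies and at 4 of 13 miRNA members. Differences between classes were not tested. Fold enrichment was alike with and without the alignment: the 184 members with it had medians of 7.72 and 6.25 in replicates 3 and 2, and the 303 without it had 8.09 and 6.33. The highest of the 4 groups ranked by replicate 3 had the alignment in 32.8% and the other 3 groups in 38.8% to 40.2%, although its peaks were wider, at a median of 826 bp.

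The G and C content of the members had a median of 49.9% (quartiles 46.4 to 53.9), against 47.9% for all shared peaks and 51.7% at protein_coding promoters. Retained-intron members had the highest median of the classes at 51.6% and pseudogene members the lowest at 47.4%. The members that overlapped replicate 1 had a median of 44.5% and the others 50.2%.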

How the data were processed

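ChIRP-seq of RWPE-1 cells comprised 3 MIR205HG libraries and 1 lacZ library of 100-bp single reads. The authors aligned reads to hg19 (Bowtie2 in the methods, Bowtie 1.0.1 in the submitters' processing notes) and called peaks per replicate against lacZ with MACS2 2.1.0. The handling of reads with several placements is not given in the sources used here. The stated cut-off was a p-value of 1e-05, but 375 and 470 peaks of replicates 2 and 3 lie above it, and all lie at a q-value under 0.05. The deposited lists give, per peak, a fold enrichment (ratio to lacZ), the −log10 p-value and −log10 q-value, a score and the summit offset. The score was not used.

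Transcripts came from GENCODE release 44 lifted to GRCh37; old types such as lincRNA and antisense were counted as lncRNA. Each member took the class of its nearest noncoding TSS, and its replicate 2 and 1 values are those of the overlapping peak with the highest fold enrichment. Reads at the summit were solved as the whole number that gives the deposited p-value, with 1 scale per replicate, for 100%, 100% and 99.98% of peaks. Depth is known only relative to lacZ. The Alu query was the stretch of the transcript that aligns repeatedly to chromosome 22, and blastn 2.17.0 (E-value at most 0.001) aligned it to the peaks. Tests were two-sided Fisher's exact tests (scipy 1.17.1, Python 3.11.15). Overlap, placement and read solving were tested on simulated data. Mature miRNA sequences are from RefSeq. Peaks on chromosome Y and other contigs (11, 29 and 57 in replicates 1, 2 and 3) were left out.

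Members, gene lists and tests were chosen with earlier results of these data known. Named are the 8 lncRNA members and 4 of each other class with the highest geometric mean fold enrichment, up to 10 overlapping replicate 1, members at listed genes and those at the edges of the rule. A member that this rule names and the sequences of Alu alignments are not reported here. Alternatives were stricter fold enrichment, q-value and overlap, a narrower window, replicate 2 summits, fewer transcripts, other Alu lengths and leaving out each replicate.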

Additional observations from a re-analysis of the deposited data

How the results depend on the processing

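The 487 members were 334 to 534 under the stricter fold enrichment, q-value and overlap, the narrower window and replicate 2 summits, and 281 when only transcripts of genes that are not protein coding counted as noncoding, or 264 with only transcripts that carry the basic tag. Under these last settings, in that order, the class shares were 55.5% and 53.0% for lncRNA, 22.1% and 22.3% for pseudogene, 17.4% and 19.7% for small RNA, 1.07% and 0.379% for retained intron and 3.91% and 4.55% for other, since both remove most transcripts of protein-coding genes by construction. All 281 were among the 487, and 259 of the 264 were. Leaving out each replicate in turn gave 30 to 487 members, with replicate 1 as the partner giving 30 and 31, and shares of 31.6% to 54.8% for lncRNA, 12.7% to 20% for pseudogene, 6.45% to 9.86% for small RNA, 6.45% to 20.5% for retained intron and 12.9% to 25.3% for other. The odds ratio for overlap with replicate 1 was 0.989 with at least 50% of both peaks shared and above 1 in the other settings, never past the threshold. With at least 150 bp of Alu alignment 0 members and 2 of the peaks at protein_coding promoters remained, an odds ratio of 0: 33.4% of alignments began at base 94 of the query and 30.9% ended before it, so few are that long. In the other Alu settings the odds ratio was 1.06 to 1.35. With a fold enrichment of at least 5 in both replicates the medians rose by construction to 9.10 in replicate 3 and 7.06 in replicate 2. No paired analysis was possible because the lacZ group has 1 library and no peak list. Summits rest on a median of 21 and 22 reads in replicates 3 and 2, which limits the precision of each fold enrichment.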

Other observations

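Peaks without a partner in the other of replicates 2 and 3 also lay at noncoding promoters. Of the 8921 replicate 3 peaks that overlapped no replicate 2 peak, 585 (6.56%, exact 95% interval 6.05 to 7.09) had their summit there, with a median fold enrichment of 6.27. Of the 2087 replicate 2 peaks that overlapped no replicate 3 peak, 124 (5.94%, 4.97 to 7.04) did.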
